A study of Danio rerio with 4 samples.

Results

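The genes described here hold the cells of the early zebrafish (Danio rerio) embryo together: the cadherins cdh1, cdh2 and pcdh8, the catenins ctnna1, ctnnb1 and ctnnb2, and epcam. They were chosen by symbol, and all 7 were found among the 14792 gene symbols of the series' expression table, each as 1 RefSeq transcript. Long-read transcript models named 5 of the 7, with 13 of the 12752 models of an untreated library and 7 of the 13102 models of a library from α-amanitin-injected embryos. cdh2, pcdh8 and ctnnb1 had higher RNA values in the control column of the table, epcam had a higher value in the α-amanitin column, and cdh1, ctnna1 and ctnnb2 differed by less than 2-fold.

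Classical cadherins are membrane proteins that bind the same cadherin on a neighbouring cell. Inside the cell their tail holds β-catenin, which in turn holds α-catenin, and α-catenin connects the complex to the actin cytoskeleton. β-Catenin has another role as the nuclear effector of Wnt signalling, so its RNA serves both adhesion and transcription. In zebrafish, embryos without Cdh1 or Epcam have defects in epiboly, the spreading of the blastoderm over the yolk that starts soon after the zygotic genome is switched on. Until then the embryo relies on RNA laid down by the mother.

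Embryos came from natural spawning of AB, TAB14 or TAB5 wild-type adults. The untreated group was a pool of 15 embryos at 6 hours post fertilization (hpf). The α-amanitin group was a pool of 15 embryos injected during the first cleavages with 0.2 nmol of this RNA polymerase inhibitor, which blocks zygotic transcription. It is also labelled 6 hpf, but its source name gives the 256-cell stage, and this conflict was not resolved. Both were sequenced as polyadenylated RNA on the PacBio long-read platform, with 1 library per group. The short-read libraries of untreated embryos at 2.5 and 5.25 hpf are known here only from their labels. Pooled whole embryos were measured, so fewer cells of a type and less RNA per cell cannot be told apart.

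The expression table has a control and an α-amanitin column of TPM, a transcript abundance per length that sums to 1000000 in each column. The columns were matched to the groups by name. Which reads they hold is not stated. If they hold the short reads of this series, the ratios below would contrast 2.5 with 5.25 hpf and not the treatment. No label links either column to those stages. With 1 value per column no difference has a replicate check and none was tested. The depth behind the values is unknown. Ratios are log2 of (control TPM + 1) over (α-amanitin TPM + 1), which understates the change of low transcripts, and a gene counts as different past 2-fold. The median ratio of RefSeq transcripts that reached 1 TPM in both columns was −0.48, so a ratio relative to that median, called the scaled ratio, is higher by 0.48. To look at the columns, 10 zygotic and 10 maternal genes were listed with earlier results of these data known, so they are no independent check. All 10 zygotic genes, such as ved, vox and vent, were higher in the control column, beside 22.5% of all genes. They were at 41.1 to 1255 TPM against 0 to 1.41 TPM. Of 10 maternal genes 6 were lower, btg4 and zar1 among them, beside 25.7% of all genes. Of the others 1 was higher and 3 were within 2-fold, buc among them. These values do not tell the treatment from a contrast of stages.

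Of the 7 genes, 3 (42.9%) were higher by 2-fold or more in the control column, beside 22.5% of all genes, and 1 (14.3%) was lower by as much, beside 25.7% of all genes. The other 3 were within 2-fold. On the scaled ratio the counts were 3 higher and 0 lower, against 30.4% and 18.8% of all genes. The median ratio of the 7 was 0.36, that of all genes was 0.00, and that of genes with 10 TPM or more in either column was −0.56. All 7 reached 10 TPM in at least 1 column and 5 did in both. Among genes of that level in either column, 27.0% were higher and 42.0% lower. Counts over 7 genes chosen by name describe these genes alone.

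**Figure D1:**
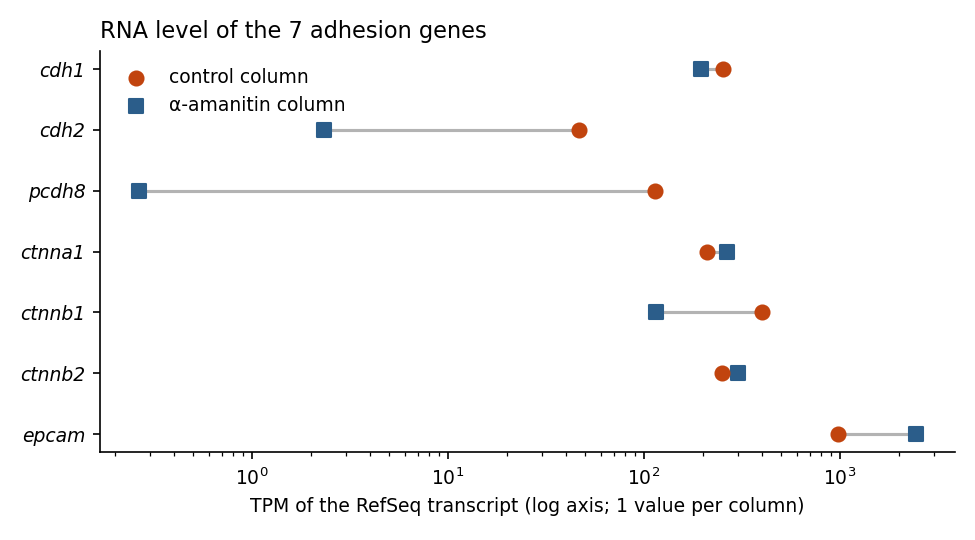
RNA level of each adhesion gene in TPM (horizontal log axis) in the control column (circles) and the α-amanitin column (squares), 1 value each, with a grey line joining the pair. The lines of pcdh8 and cdh2 are the longest, those of cdh1, ctnna1 and ctnnb2 are short, and epcam lies highest in both columns.

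Among the cadherins, cdh1 (E-cadherin, NM_131820), the main classical cadherin of the blastula, was at 253 TPM in the control column against 196 TPM in the α-amanitin column. It was thus high in both, above 98.3% and 97.9% of all genes, with a ratio of 0.36 (scaled 0.84), inside the 2-fold limit on either scale. cdh2 (N-cadherin, NM_131081), the cadherin of neural and mesodermal tissue, was at 46.3 TPM in the control column against 2.32 TPM in the α-amanitin column. It was 19.9 times higher in the control column, a ratio of 3.83. pcdh8 (NM_131209), the paraxial protocadherin of the gastrula mesoderm, which takes part in cell sorting and convergent extension, was at 114 TPM in the control column against 0.264 TPM in the α-amanitin column. Its ratio of 6.51 was the largest of the 7 and above that of 99.5% of all genes. cdh2 and pcdh8 were the 2 genes of the set under 10 TPM in the α-amanitin column. Of the summed TPM of the 2 classical cadherins, cdh2 made up 15.5% in the control column against 1.17% in the α-amanitin column, so cdh1 was the more abundant of the pair in both.

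The β-catenin paralogs differed from each other. ctnnb1 (NM_131059) was at 401 TPM in the control column against 115 TPM in the α-amanitin column, 3.48 times higher in the former, with a ratio of 1.79 (scaled 2.27). ctnnb2 (NM_001001889), whose maternal RNA is required for the dorsal axis in zebrafish, as the ichabod mutant shows, was at 249 and 302 TPM. Its ratio was −0.28, inside the 2-fold limit, and became 0.20 on the scaled ratio, so its direction depends on the scaling. The order of their RefSeq values was opposite in the columns: ctnnb1 was at 1.61 times the level of ctnnb2 in the control column and at 0.381 times in the α-amanitin column. As a share of their sum, ctnnb1 made up 61.7% and 27.6%, and this share does not depend on scaling. The sum itself was 649.98 TPM in the control column against 417 TPM in the α-amanitin column, a ratio of 0.64. The paralogs have related sequences, and how the quantifier divided reads that match both is not stated, so the split between them is uncertain. Long-read models named ctnnb1 in both libraries but ctnnb2 in neither. Part of the ctnnb1 RNA may thus be counted under PacBio identifiers that could not be joined to genes, by an unknown amount in each column. The order, the split and the sum are therefore those of the RefSeq transcripts alone.

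ctnna1 (α-catenin, NM_131456), which connects β-catenin to actin, was at 209.8 TPM in the control column against 265 TPM in the α-amanitin column. Its ratio was −0.33 and became 0.15 on the scaled ratio, within 2-fold both times and with no settled direction. Its level was close to that of ctnnb2, at 0.842 times ctnnb2 in the control column and 0.876 times in the α-amanitin column. Against cdh1, ctnna1 stood at 0.830 times in the control column against 1.35 times in the α-amanitin column. The RNAs of cdh1, ctnna1 and ctnnb2 therefore lay between 196 and 302 TPM in both columns, and no neighbours in that order can be called different without replicates.

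epcam (NM_001017593), a membrane glycoprotein of epithelia unrelated to the cadherins, had the highest level of the 7 in each column. It was at 981 TPM in the control column (rank 34 of all genes) against 2437 TPM in the α-amanitin column (rank 2). It was 2.48 times higher in the α-amanitin column, a ratio of −1.31. On the scaled ratio it was −0.83, the same direction but inside the 2-fold limit. epcam alone held 73.4% of the TPM of the 7 genes in the α-amanitin column and 43.5% in the control column. Its level was 12.4 times that of cdh1 in the α-amanitin column and 3.88 times in the control column. Without epcam the other 6 genes summed to 1273 TPM in the control column against 881 TPM in the α-amanitin column.

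**Figure D2:**
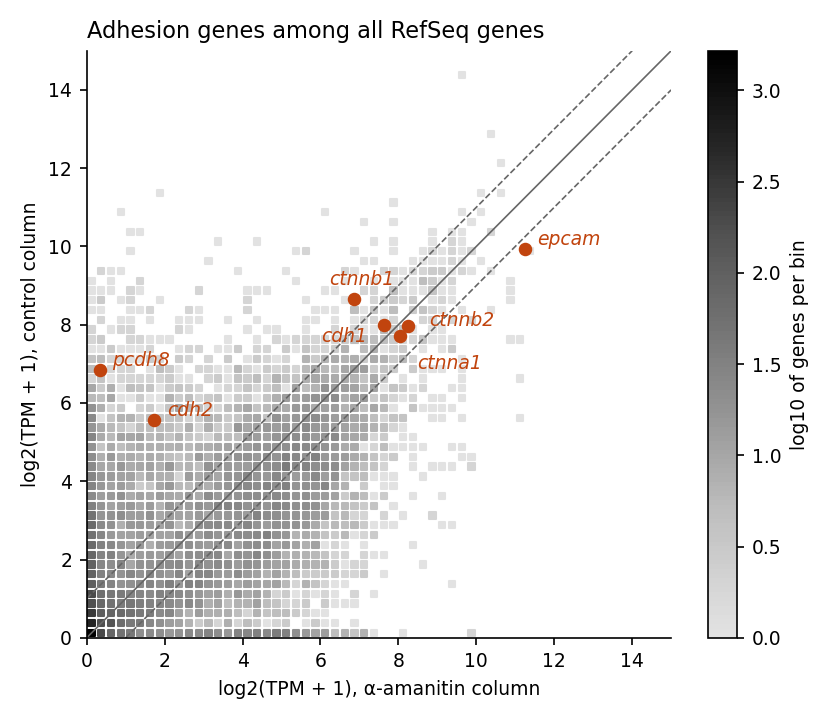
Each RefSeq gene's log2(TPM + 1) in the α-amanitin column (horizontal) and control column (vertical), with grey squares shaded by the log10 number of genes per bin and the 7 adhesion genes as orange points. The solid line marks equal values and the dashed lines 2-fold; pcdh8, cdh2 and ctnnb1 lie above the upper dashed line and epcam below the lower one.

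Genes with the most similar values were found by Euclidean distance in log2(TPM + 1) over the 2 columns, and the nearest 2 were taken for each gene. cdh1 lay nearest to polr2gl (distance 0.012) and h3f3d (0.062), and ctnnb2 to bcl2l10 (0.012) and zgc:165555 (0.14). ctnnb1 lay nearest to h2afvb (0.056) and khdrbs1b (0.088), and ctnna1 to eif2s1a (0.13) and thoc7 (0.17). The nearest genes to cdh2 were mespaa, at 46.8 and 2.07 TPM, and slain1b, at 48.7 and 2.04 TPM. The nearest to pcdh8 were drll.3, at 110 and 0.308 TPM, and si:ch1073-339l18.2, at 121 and 0.342 TPM. epcam had no close neighbour: ccnb1, at 561 and 2032 TPM, was at a distance of 0.85, and zgc:154164 at 1.04. With 2 values per gene, such likeness says only that the levels are close.

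Long-read models show the structure of the RNAs, though not their amount, because collapsed models carry no read counts. A model is classed by Cuffcompare as = when its introns match those of a reference transcript, as j when it shares a splice junction but differs in structure, as c when it lies within the reference, and as x when it overlaps exons on the opposite strand. Models named 5 of the 7 genes in the untreated and 4 in the α-amanitin library, where 43.6% and 44.3% of all genes in the table had a model. The share was higher among genes within 0.5 log2 units of each member's level, at 69.3% to 77.3% in the untreated library. In the α-amanitin library it was 15.2% for pcdh8, 33.5% for cdh2 and at least 91.8% for each other member. A class = model was found in both libraries for the same 4 genes: cdh1, ctnna1, ctnnb1 and epcam. Their lengths were close to the reference, between 97.0% and 104.8% for untreated embryos and between 99.4% and 101.6% for α-amanitin. That is usual for this class, whose median over all genes was 100.5% (untreated) and 100.7% (α-amanitin). Of all named genes, 59.7% and 61.4% had a class = model. For cdh1 the model had 3271 bases (untreated) and 3281 bases (α-amanitin), against 3292 bases in the reference. For ctnna1 the lengths were 3619 and 3708 bases against 3732. For ctnnb1 they were 3488 and 3362 bases against 3350, so the untreated model was 138 bases longer than the reference. For epcam they were 1340 and 1299 bases against 1279. The long reads thus held these 4 transcripts at about full length in both libraries.

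The other models were shorter or differently spliced. All 7 contained models lay in the untreated library, with 0 in the other, while class c made up 15.4% and 14.4% of all models of these libraries. They belonged to cdh1 (712 bases), cdh2 (952 bases), ctnna1 (1571 bases), ctnnb1 (1632 and 1473 bases) and epcam (592 and 309 bases). A contained model can be a truncated molecule as well as a shorter transcript, and the tables do not tell these apart. Each library had 2 models of class j. In the untreated library these were a ctnna1 model of 2107 bases and a ctnnb1 model of 1157 bases. In the α-amanitin library they were a ctnnb1 model of 2488 bases, 74.3% of the reference, and an epcam model of 1194 bases, 93.4% of it. The α-amanitin library also held a model of 1189 bases on the strand opposite to ctnnb1, 1 of its 210 models of class x; whether the libraries kept strand is not stated in the sources used here. ctnnb1 had the most models of the set, 4 without and 3 with α-amanitin, the opposite-strand model included. Without that model it had 2 in the α-amanitin library, as many as epcam. Of all named genes 10.4% and 11.4% had at least 3 models, with every class counted.

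**Figure D3:**
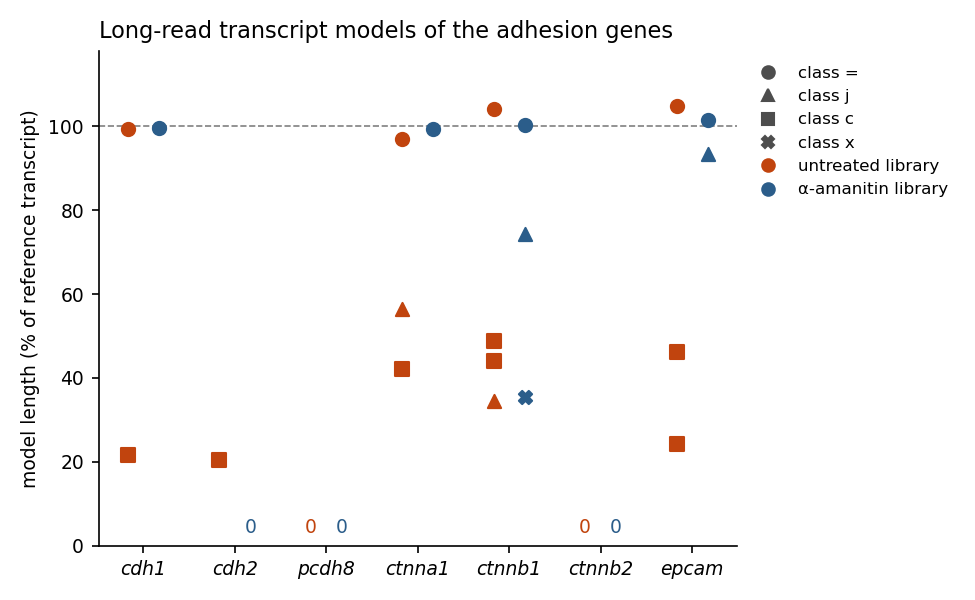
Length of each long-read transcript model as a percentage of its reference transcript (vertical axis) for the adhesion genes (horizontal axis) in the untreated (orange) and α-amanitin (blue) libraries, 1 library each. Marker shape gives the class code, the dashed line marks the reference length, and 0 marks a gene without a model; class = models lie near 100% for 4 genes, and every contained model is in the untreated library.

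For cdh2 the single model, in the untreated library, covered 20.4% of the 4671 bases of its reference. No model named pcdh8 or ctnnb2 in either library. For pcdh8 in the α-amanitin library this was the more common outcome at its level: 15.2% of 5644 genes within 0.5 log2 units of it in the α-amanitin column had a model. In the untreated library 71.3% of 491 genes with a control value like that of pcdh8 had one. For ctnnb2, 137 of 178 genes of like control level (77.0%) had a model in the untreated library, and 146 of 153 of like α-amanitin level (95.4%) had one in the α-amanitin library. Models of the other genes may also be counted in the expression table under PacBio identifiers, which held 55.6% of control and 58.8% of α-amanitin TPM and could not be joined to genes. The values above are therefore those of the RefSeq transcripts alone.

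Lists of related genes were then placed beside the 7. Of 150 listed genes, 110 were in the table, 37 of them (33.6%) past 2-fold with the higher value in the control column and 26 (23.6%) with the lower value there, beside 22.5% and 25.7% of all genes. Their median ratio was 0.21. At 10 TPM or more in either column there were 57, with 22 higher and 17 lower, where 27.0% of all genes of that level were higher and 42.0% lower. Counts in the lists below are of genes past 2-fold. A RefSeq value near 0 does not show that a gene's RNA was absent, since some of these genes had long-read models in the library of the same name, as given beside them.

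Other members of the cadherin superfamily were low in the α-amanitin column, and most were low in the control column too. Of 33 listed genes, 20 were in the table. Of these 20, 8 had the higher value in the control column past 2-fold and 1 the lower (11 and 1 on the scaled ratio), with a median ratio of 0.67. Among all genes 22.5% were higher and 25.7% lower (30.4% and 18.8% on the scaled ratio). The highest reached 6.55 TPM in the α-amanitin column, against 196 TPM for cdh1. Low values were common in that column, where 48.5% of all genes lay below cdh2, at 2.32 TPM. The largest ratios at 10 TPM or more were those of cdh6, a type II cadherin, at 57.0 against 0.103 TPM (5.72), pcdh18b, a protocadherin, at 44.8 against 0.160 TPM (5.30), and dsc2l, a desmocollin of desmosomes, at 35.6 against 1.33 TPM (3.97). Of the 20, 4 reached 10 TPM in either column, all 4 with the higher value in the control column. A lower control value could not occur at that level, since no α-amanitin value of the list passed 6.55 TPM.

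Cytoplasmic partners of adherens junctions and desmosomes went both ways. Only 15 of 30 listed genes were in the table. Of these 15, 3 had the higher value in the control column and 6 the lower, with a median ratio of −0.39. On the scaled ratio these became 4 higher and 2 lower with a median of 0.09, so the balance depends on the scaling. All genes also went both ways, 22.5% higher and 25.7% lower (30.4% and 18.8% on the scaled ratio). The desmosomal plaque genes pkp3a (plakophilin), at 31.5 against 0.104 TPM (4.88), and jupa (plakoglobin, a relative of β-catenin), at 28.5 against 0.567 TPM (4.23), had the largest ratios. jupa nevertheless had 2 long-read models with α-amanitin and 1 without, while pkp3a had 0 and 1. Lower in the control column were arvcfb, of the p120 catenin family, at 1.97 against 15.3 TPM (−2.45), and vcla (vinculin), at 5.04 against 14.8 TPM (−1.39; scaled −0.91, inside the 2-fold limit). ctnnal1, an α-catenin relative, was listed at 0 in the control column and at 20.3 TPM in the α-amanitin column. It had 0 long-read models in the untreated and 1 in the α-amanitin library. A listed 0 can also be a failed estimate, or the RNA may be counted under a PacBio identifier, and neither was tested.

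Tight junction genes and partners of Epcam held the widest range. Of 23 in the table, 8 had the higher value in the control column and 6 the lower (8 and 5 on the scaled ratio). Over all genes 22.5% were higher and 25.7% lower (30.4% and 18.8% on the scaled ratio). The median was −0.15 and became 0.33 on the scaled ratio. Among the claudins, the strand proteins of tight junctions, cldne was at 381 against 0.136 TPM (8.39) and cldnb at 75.3 against 0.627 TPM (5.55), both higher in the control column. In the same family cldng was at 47.04 against 2049 TPM (−5.42), close to the α-amanitin level of epcam. cldn7b was listed at 0 in the control column against 131 TPM, and had 1 long-read model in each library. tjp3, a junction scaffold, was at 25.1 against 0.528 TPM (4.09), with 2 long-read models under α-amanitin and 3 without it, and f11r.1, a junctional adhesion molecule, at 39.8 against 176 TPM (−2.12). The enveloping layer keratin krt4, at 1255 against 1.31 TPM, was higher in the control column along with cldne. Both are among the 10 zygotic genes listed with earlier results of these data known, so this is no independent observation. The part of the enveloping layer in these values was not tested.

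**Figure D4:**
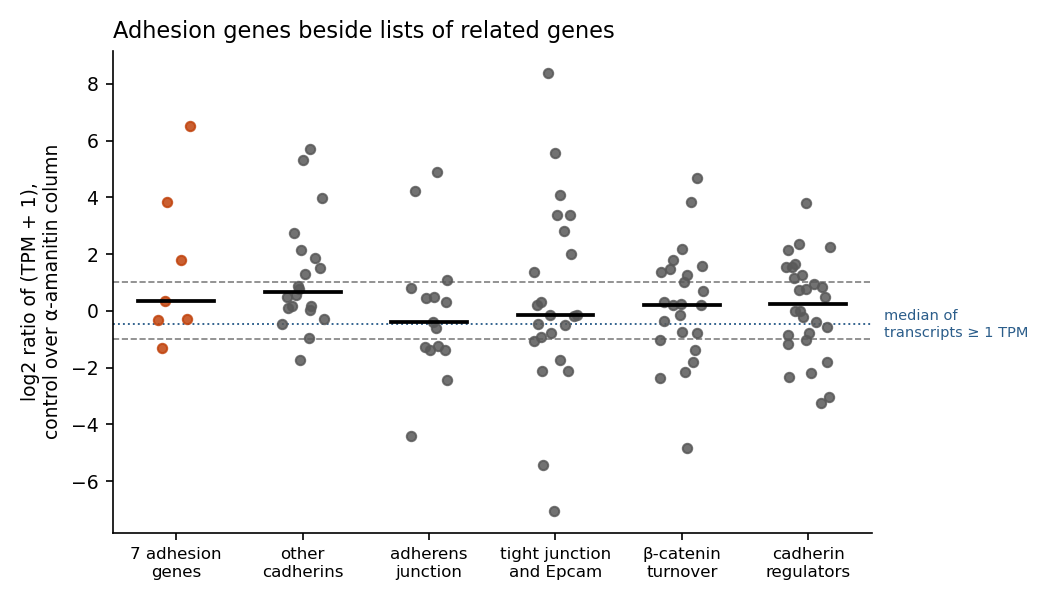
Log2 ratio of (TPM + 1), control over α-amanitin column, for the 7 adhesion genes (orange) and 5 lists of related genes (grey), 1 point per gene and a bar at each median. Dashed lines mark 2-fold and the dotted line the median of RefSeq transcripts that reached 1 TPM in both columns (−0.48); every list has genes past 2-fold on both sides.

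Genes that control β-catenin turnover and its nuclear partners numbered 24 in the table, with a median of 0.22. Of these, 9 had the higher value in the control column and 6 the lower (10 and 4 on the scaled ratio). The shares of all genes were 22.5% and 25.7% (30.4% and 18.8% on the scaled ratio). Higher were dvl3a (dishevelled, a Wnt signal transducer), at 38.6 against 0.545 TPM (4.68), tcf7l1a (a DNA-binding partner of β-catenin), at 13.1 against 9.08e-07 TPM (3.82), and gsk3ba (a kinase that marks β-catenin for degradation), at 10.4 against 1.54 TPM (2.16). Lower were its relative gsk3ab, at 0.00447 against 27.3 TPM (−4.82), and fbxw11b, an F-box protein of the β-TrCP family that recognises phosphorylated β-catenin, at 44.0 against 200 TPM (−2.16). Beside their near-zero values, dvl3a, tcf7l1a and gsk3ab had long-read models in the library of the same name, though models do not show amount. Of 5644 genes within 0.5 log2 units of pcdh8 in the α-amanitin column (0.264 TPM), 15.2% had a model in that library. In the α-amanitin library dvl3a had 4 models and tcf7l1a 2, against 1 each in the untreated library, and gsk3ab had 2 models in both. These low RefSeq values can be failed estimates, or the RNA may be counted under the PacBio identifiers that could not be joined to genes. Neither was tested. The differences of dvl3a, tcf7l1a and gsk3ab are those of the RefSeq transcript alone.

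Regulators of cadherins in gastrulation numbered 28 in the table, with 9 higher and 7 lower (13 and 5 on the scaled ratio) and a median of 0.24. Beside them, 22.5% of all genes were higher and 25.7% lower (30.4% and 18.8% on the scaled ratio). Of the Snail family, transcriptional repressors known to act on E-cadherin, snai2 was at 65.3 against 3.71 TPM (3.81) and snai1a, with 2 RefSeq transcripts summed, at 58.9 against 12.6 TPM (2.13). prnprs3, a prion protein relative, was at 21.2 against 3.33 TPM (2.36). Lower in the control column were the recycling endosome GTPases rab11ba, at 0.221 against 10.6 TPM (−3.25), with 1 long-read model in each library, and rab11a, at 5.31 against 27.8 TPM (−2.19), and the Src family kinase fyna, at 7.90 against 43.7 TPM (−2.33).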

How the data were processed

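Per the series description, the authors assembled PacBio reads with IsoSeq, mapped them to GRCz10 with GMAP and compared them with a reference transcriptome with Cuffcompare; versions are not given in the sources used here. The deposited tables give model and reference lengths in bases, and their FPKM and coverage columns were 0 throughout (0 models above 0) and not used. The deposited expression table holds log2(TPM + 1), read from the values, which sum to 1000000 TPM in each column. kallisto is named without a role, per the submitters' processing notes. Values were turned back to TPM with Python 3.11.15, numpy 2.4.6 and pandas 2.3.3, and matplotlib 3.10.9 drew the figures. Of 15936 RefSeq transcripts, 15455 (97.0%) had a symbol, 7695 from the long-read tables and 7760 from the RefSeq table of assembly GRCz12tu, used for names alone. RefSeq transcripts of a symbol were summed. Pseudocount was 1 TPM and the threshold 2-fold, with no filter. List symbols were also matched through unique synonyms. From each list the text names up to 3 higher and 3 lower genes past 2-fold that reached 10 TPM in a column. The 7 genes and the lists were chosen with earlier results of these data known. The calculation of ratios and counts was tested on simulated data with planted changes and no noise, which checks the arithmetic alone.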

Additional observations from a re-analysis of the deposited data

How the results depend on the processing

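Shifting all ratios by the median of −0.48 left 0 of the 7 genes at least 2-fold lower in the control column in place of 1 (epcam), and a 4-fold threshold also left 0. Among adherens junction partners the shift left 2 lower in place of 6, and a pseudocount of 0.1 TPM made 2 other cadherins lower in place of 1. Requiring at least 2 models per gene left 2 of the 7 in the α-amanitin library in place of 4, which follows from counting fewer genes. The other 41 counts under alternatives stayed within 1.5 times. Counts that required 1 TPM in either column are among these 41 and could not differ from the main ones. With a pseudocount of 1 TPM, no gene below 1 TPM in both columns can pass 2-fold. The most abundant transcript gave the same ratios and counts for the 7 genes as the sum, by construction, since each has 1 RefSeq transcript. With a pseudocount of 0.1 TPM the ratio of pcdh8 was 8.29 and that of cdh2 4.26. No paired analysis was possible because each group has 1 library. Read depth is unknown, and without replicates no difference can be set against sampling error.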

Other observations

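Clustered protocadherins, the large families of cadherin relatives that neurons use to tell cells apart, were close to 0 in both columns. pcdh8 was also low in the α-amanitin column, at 0.264 TPM, though above all of these but pcdh2ab2. It stood at 114 TPM in the control column. Low values were common in the α-amanitin column, where 28.0% of all genes lay below pcdh8. Many other genes were also under 1 TPM in both columns, so such a level is not particular to these families. The share of all genes at that level was not summed. These families and all symbols beginning with cldn were collected by symbol after the values had been seen. Of 44 clustered protocadherin symbols, 0 reached 1 TPM in either column, with highest values of 0.600 TPM in the control column (pcdh2ab7) and 0.324 TPM in the α-amanitin column (pcdh2ab2). Their values summed to 4.93 and 1.69 TPM. Members of these clusters have near-identical copies, so single values are uncertain.

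The table held 33 symbols beginning with cldn, among them cldnd1a and cldnd1b, which are named for a claudin domain. Of the 33, 12 had the higher value in the control column past 2-fold and 4 the lower, beside 22.5% and 25.7% of all genes. On the scaled ratio these were 14 and 3, beside 30.4% and 18.8%. Only 11 of these symbols, cldnd1a and cldnd1b included, reached 10 TPM in either column, with 7 higher and 3 lower. Among all genes of that level 27.0% were higher and 42.0% lower. The summed level of the 33 symbols was 791 TPM in the control column and 2317 TPM in the α-amanitin column. cldng alone held 2049 TPM of the latter, and cldne 381 TPM of the former. Besides those, cldn30 was at 23.4 against 0.996 TPM (ratio 3.61) and cldnd1a at 9.14 against 35.9 TPM (−1.86).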
